A study of Mus musculus with 8 samples.

Results

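The genes described here are those carried by the mitochondrial chromosome of the mouse. They were taken as every gene whose symbol in the GENCODE M21 annotation starts with mt-, all of which lie on chromosome M, and 37 of the 55414 genes counted met that rule. They comprise 13 protein-coding genes, 2 rRNA genes and 22 tRNA genes. Values were read in 8 RNA-seq libraries of spleen neutrophils, 4 from FVB-WT mice and 4 from FVB-Cxcr2-/- mice, all 10 weeks old and kept under SOPF conditions. The Cxcr2-/- mice lack the chemokine receptor Cxcr2 in every cell and had been bred into the FVB background that the WT mice share, so a difference between the groups may arise in the neutrophils or in the animal around them. Cells were enriched for CD11b and sorted as CD45+ CD11b+ Ly6G+ F4/80- before RNA was extracted with Trizol, and libraries were made after depletion of rRNA. Each group had 4 animals and 4 libraries, so each library was taken as 1 animal.

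The mitochondrial chromosome is a small circle that encodes core subunits of the respiratory chain and of the ATP synthase, together with the rRNAs and tRNAs needed to translate them inside the organelle. Both strands are transcribed as long precursors, and the tRNAs that lie between the other genes mark the places where these precursors are cut. Every other subunit of these complexes, and every protein that copies, transcribes, processes or translates mitochondrial DNA and RNA, is encoded in the nucleus. Mature neutrophils draw most of their energy from glycolysis and hold few mitochondria, whereas their precursors in the bone marrow hold more.

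The counts assigned to genes summed to between 34220182 and 46233555 per WT library and between 37549648 and 43789253 per Cxcr2-/- library. The deleted gene followed the labels, with Cxcr2 at 1719 to 2252 CPM (counts of a gene scaled to the size of its library) in WT and 12.9 to 20.7 CPM in Cxcr2-/-. The neutrophil markers Ly6g, S100a8 and S100a9 were abundant in each library. Read pairs that met no annotated gene made up 31.4% to 41.5% of all pairs in WT and 26.7% to 31.9% in Cxcr2-/-, and pairs without a unique alignment made up 8.23% to 11.2% and 10.4% to 13.3%. The first share was lower and the second higher in Cxcr2-/- on average, with overlapping ranges (means of 38.2% and 29.6%, and of 9.32% and 12.03%), and the first was also entered as a covariate.

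Of the 37 genes, 24 had no count in any library, 3 reached at most 5 counts in a library, and 10 had at least 10 counts in every library. The 10 were both rRNA genes (mt-Rnr1 and mt-Rnr2), 7 protein-coding genes (mt-Nd1, mt-Nd2, mt-Co1, mt-Nd4, mt-Nd5, mt-Nd6 and mt-Cytb) and the proline tRNA gene mt-Tp. These same 10 passed the filter on low counts, and each did so in both groups. The genes without a count were 21 tRNA genes and the protein-coding genes mt-Atp8, mt-Nd3 and mt-Nd4l. The genes with a few counts were mt-Co2, mt-Atp6 and mt-Co3. mt-Co2 had no count in WT and 0, 0, 1 and 2 counts in Cxcr2-/- 1 to 4. mt-Atp6 had 1 count, in Cxcr2-/- 3. mt-Co3 had 0, 0, 2 and 1 counts in WT 1 to 4 and 1, 3, 5 and 3 counts in Cxcr2-/- 1 to 4. A library without a count could have held up to 3 counts of a gene, which was 0.0649 to 0.0877 CPM, so the level of these genes could not be set against that of the others.

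**Figure D1:**
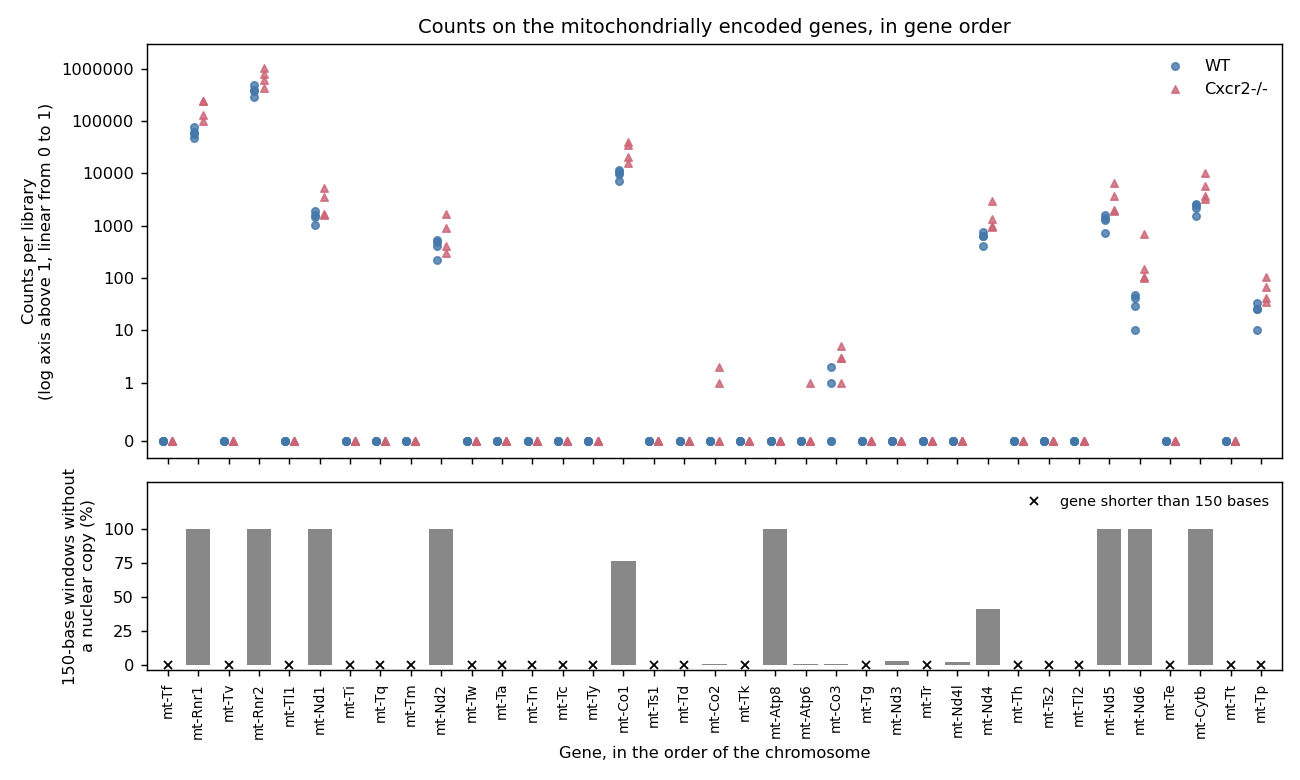
Counts per library of the 37 mitochondrially encoded genes in the order of the chromosome (top; log axis above 1 and linear from 0 to 1; circles WT, triangles Cxcr2-/-, n = 4 each) and the share of 150-base windows of each gene that had no exact match in an annotated nuclear transcript (bottom, in percent). The genes from mt-Co2 to mt-Nd4l sit at 0 to 5 counts in every library, while 10 genes have at least 10 counts in every library.

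The protein-coding genes at or near 0 stand next to each other on the chromosome, and most of them have a near-identical copy in the nucleus. Nuclear genomes carry stretches of transferred mitochondrial DNA, here called nuclear copies. A search of 141730 annotated nuclear transcripts, at 95% identity or more over 100 bases or more, found 11 such copies. A block of 7 of them lies on chr1:24611535-24616197 on the minus strand, a span of 4663 bases, and follows the order of chrM:6390-11042 from the end of mt-Co1 to the middle of mt-Nd4. The copies of mt-Co2 (Gm28661), mt-Atp6 (Gm10925), mt-Co3 (Gm28437), mt-Nd4l (Gm10222) and mt-Nd4 (Gm28439) were 100% identical over the 681, 678, 783, 294 and 876 bases aligned. The copy of mt-Nd3 (Gm28438) had 1 mismatch in 345 bases, and that of the end of mt-Co1 (Gm29216) was 99.8% identical over 483 bases. Further copies lie on chromosomes 2 (Gm13341, Gm13340 and Gm13339, similar to mt-Co2, mt-Co1 and mt-Nd2) and 13 (Gm4076, similar to mt-Nd5), at 95.2% to 97.6% identity.

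The following stretches show how little separates such pairs. Coordinates are those of GRCm38, each sequence is written 5′ to 3′ in the sense of the gene, and capitals mark the bases that differ within a pair. The first pair is mt-Nd3 at chrM:9459-9578 on the plus strand and its copy at chr1:24613000-24613119 on the minus strand.
mt-Nd3: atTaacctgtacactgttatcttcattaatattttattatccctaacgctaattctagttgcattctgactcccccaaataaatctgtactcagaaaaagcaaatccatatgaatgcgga
Gm28438: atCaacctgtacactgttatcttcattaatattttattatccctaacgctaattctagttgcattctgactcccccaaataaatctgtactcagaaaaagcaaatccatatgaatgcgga
mt-Co1, which was counted in every library, is shown at chrM:6390-6509 on the plus strand with its chromosome 1 copy at chr1:24616069-24616188 on the minus strand.
mt-Co1: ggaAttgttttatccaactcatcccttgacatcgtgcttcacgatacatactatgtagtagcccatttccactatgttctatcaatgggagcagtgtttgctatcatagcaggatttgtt
Gm29216: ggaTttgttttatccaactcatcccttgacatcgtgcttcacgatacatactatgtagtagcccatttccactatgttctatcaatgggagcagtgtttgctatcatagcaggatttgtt
An earlier part of mt-Co1, chrM:6113-6232 on the plus strand, differed more from its chromosome 2 copy at chr2:22588743-22588862 on the minus strand.
mt-Co1: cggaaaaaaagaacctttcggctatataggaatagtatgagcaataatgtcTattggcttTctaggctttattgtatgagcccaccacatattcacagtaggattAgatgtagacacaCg
Gm13340: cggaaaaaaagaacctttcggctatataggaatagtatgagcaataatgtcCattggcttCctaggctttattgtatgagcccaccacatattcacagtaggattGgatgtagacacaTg
The first and second of these pairs differ at 1 of 120 bases and the third at 4 of 120.

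The protein-coding genes with few stretches free of a nuclear match were those with few or no counts. Reads were up to 150 bases long and kept at 120 or more. Windows of 150 bases without an exact match in an annotated nuclear transcript made up 0.56% of those of mt-Co2, 0.56% of mt-Atp6, 0.16% of mt-Co3, 3.02% of mt-Nd3 and 2.03% of mt-Nd4l. The share was 40.9% for mt-Nd4 and 76.4% for mt-Co1. It was 100% for mt-Rnr1, mt-Rnr2, mt-Nd1, mt-Nd2, mt-Nd5, mt-Nd6 and mt-Cytb, all of which had counts. mt-Atp8 is an exception, with no counts although 100% of its 55 windows had no match. It is 204 bases long, shares its last bases with mt-Atp6, and lies inside the mitochondrial stretch that the chromosome 1 block follows, where no annotated transcript covers it. The tRNA genes are 59 to 75 bases long, so a read kept at 120 bases could not lie within any of them. Whether multiple alignment, overlap of genes or length sets these zeros was not tested.

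The nuclear copies took few reads themselves. The 3 with the most counts were Gm29216 with 100, Gm28661 with 92 and Gm28437 with 87 counts summed over the 8 libraries, against 150329 counts on mt-Co1. Gm29216 had 11, 6, 5 and 3 counts in WT 1 to 4 and 20, 13, 24 and 18 counts in Cxcr2-/- 1 to 4, and its groups did not overlap. It rose with a log2 fold change of 1.67 ± 0.43 (SE, adjusted p = 0.00666, edgeR quasi-likelihood test, Benjamini-Hochberg). Gm28661 (log2 fold change 1.53, adjusted p = 0.0493) and Gm28437 (1.80, adjusted p = 0.0495) passed the same test narrowly. Pairs without a unique alignment were not counted on genes. Whether the pairs counted on these 3 copies came from the copy or from the mitochondrial gene it matches was not tested. With the counts of the copies added to their mitochondrial gene, mt-Co2 and mt-Co3 had enough counts to be tested, with log2 fold changes of 1.78 (adjusted p = 0.0236) and 1.83 (adjusted p = 0.0413). Most of these counts lay on the copies. mt-Co2 itself had 3 counts summed over the 8 libraries and mt-Co3 had 15, so these tests largely repeat those of Gm28661 and Gm28437.

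All 10 mitochondrially encoded genes that could be tested were higher in Cxcr2-/- spleen neutrophils. Each passed an adjusted p of 0.05 in edgeR's quasi-likelihood test and changed by at least 1.5-fold, and none fell. Log2 fold changes ran from 0.96 for mt-Rnr2 to 3.16 for mt-Nd6, with a median of 1.49 beside 0.01 over all genes tested. Of the 16778 genes tested, 44.7% passed in either direction and 23.7% upward, while 31.3% passed with at least a 1.5-fold change in either direction and 15.7% did so upward, so a rise was common in this comparison and the 10 genes are to be read against those shares. The 4 Cxcr2-/- libraries lay above the 4 WT libraries for 9 of the 10 genes, against 22.5% of all genes tested (41.6% when either direction is counted), and mt-Nd2 was the exception. Scaled by total counts, 7 of the 10 were without overlap, as mt-Rnr2 and mt-Nd1 then overlapped too. The genes share their precursors and their libraries, so they are not 10 separate observations. In bulk RNA, fewer cells of a type and less RNA per cell cannot be told apart, and the same holds for more.

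mt-Rnr1 (ENSMUSG00000064337, chrM:70-1024, plus strand), the 12S rRNA of the small mitochondrial ribosomal subunit, had 1682, 1168, 1662 and 1386 CPM in WT 1 to 4. It had 2601, 3701, 6201 and 5926 CPM in Cxcr2-/- 1 to 4. Every Cxcr2-/- library was above every WT library, with Cxcr2-/- 3 and 4 at the top. The log2 fold change was 1.64 ± 0.25 (SE, adjusted p = 1.64e-04, edgeR).

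mt-Rnr2 (ENSMUSG00000064339, chrM:1094-2675, plus strand), the 16S rRNA of the large subunit, had 10871, 7832, 10295 and 8526 CPM in WT and 10949, 16686, 20768 and 24826 CPM in Cxcr2-/-. Cxcr2-/- 1 lay next to WT 1, and the other Cxcr2-/- libraries stood clear of WT. The log2 fold change was 0.96 ± 0.22 (SE, adjusted p = 0.00353, edgeR). mt-Rnr2 held rank 3 to 8 among all genes by count in the 8 libraries, while mt-Rnr1 held rank 49 to 82 in WT and 12 to 32 in Cxcr2-/-. Both rRNAs were counted in libraries depleted of rRNA, so their values are what the depletion left, and a difference in level and a difference in depletion cannot be told apart.

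The ratio of the 2 rRNAs also differed between the groups. mt-Rnr2 had 6.47, 6.70, 6.19 and 6.15 counts for each count on mt-Rnr1 in WT 1 to 4. In Cxcr2-/- 1 to 4 the ratio was 4.21, 4.51, 3.35 and 4.19. The ranges did not overlap, and the group means were 6.38 ± 0.26 and 4.06 ± 0.50 (SD, n = 4 each), a ratio that the scaling of the library does not touch. Both genes are cut from 1 precursor, and no test was made of the ratio. The counts are what the rRNA depletion left. A difference in the ratio of the RNAs and an unequal depletion of them cannot be told apart.

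mt-Co1 (ENSMUSG00000064351, chrM:5328-6872, plus strand), the catalytic subunit 1 of cytochrome c oxidase (complex IV), had 259, 217, 261 and 206 CPM in WT. It had 393, 573, 1022 and 837 CPM in Cxcr2-/-, so the groups did not overlap and the Cxcr2-/- libraries spread more widely. The log2 fold change was 1.58 ± 0.24 (SE, adjusted p = 1.64e-04, edgeR). Its rank among all genes by count moved from 700 to 1003 in WT to 89 to 453 in Cxcr2-/-. mt-Cytb (ENSMUSG00000064370, chrM:14145-15288, plus strand), the cytochrome b of complex III, had 54.5, 51.2, 58.7 and 44.3 CPM in WT and 94.6, 90.7, 256.5 and 139.3 CPM in Cxcr2-/-. Here Cxcr2-/- 1 and 2 lay close together and Cxcr2-/- 3 stood highest. The log2 fold change was 1.48 ± 0.27 (SE, adjusted p = 7.98e-04, edgeR).

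The subunits of complex I (NADH dehydrogenase) rose as well, with Cxcr2-/- 3 highest for each of them. mt-Nd1 (ENSMUSG00000064341, chrM:2751-3707) had 35.9, 38.4, 40.0 and 29.4 CPM in WT and 41.1, 46.8, 131.7 and 86.6 CPM in Cxcr2-/-, with Cxcr2-/- 1 just above WT 3. Its log2 fold change was 1.09 ± 0.29 (SE, adjusted p = 0.00925, edgeR), and 0.69 without Cxcr2-/- 3 (adjusted p = 0.0245). mt-Nd2 (ENSMUSG00000064345, chrM:3914-4951) had 10.9, 10.6, 11.0 and 6.42 CPM in WT and 7.58, 11.3, 43.3 and 22.3 CPM in Cxcr2-/-. Cxcr2-/- 1 lay below 3 of the 4 WT libraries, so the groups overlapped. Its log2 fold change was 1.115 ± 0.42 (SE, adjusted p = 0.0453, edgeR), and without Cxcr2-/- 3 it was 0.49 with an adjusted p of 0.228. DESeq2 gave mt-Nd2 an adjusted p of 0.106, and the gene lost its call in 13 of 20 alternative fits, so its rise rests on the setting and on 1 library.

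mt-Nd4 (ENSMUSG00000064363, chrM:10167-11544) had 14.3, 15.4, 17.1 and 11.9 CPM in WT and 24.6, 25.8, 76.9 and 32.7 CPM in Cxcr2-/-. Cxcr2-/- 3 was the 1 library far above the rest. The log2 fold change was 1.45 ± 0.31 (SE, adjusted p = 0.00221, edgeR), and 0.91 without Cxcr2-/- 3 (adjusted p = 4.34e-04). mt-Nd5 (ENSMUSG00000064367, chrM:11742-13565) had 31.7, 31.7, 34.02 and 20.6 CPM in WT and 49.2, 55.8, 169.7 and 91.7 CPM in Cxcr2-/-. Its groups did not overlap, and the log2 fold change was 1.63 ± 0.33 (SE, adjusted p = 0.00137, edgeR).

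mt-Nd6 (ENSMUSG00000064368, chrM:13552-14070) is the protein-coding gene of the minus strand, the 12 others being read from the plus strand. It had 47, 41, 29 and 10 counts in WT 1 to 4 and 150, 101, 686 and 105 counts in Cxcr2-/- 1 to 4, which was 1.04, 0.824, 0.775 and 0.289 CPM against 3.79, 2.79, 17.4 and 2.55 CPM. The 4 Cxcr2-/- libraries stood above WT, and Cxcr2-/- 3 was far above the other 3. The log2 fold change was 3.16 ± 0.62 (SE, adjusted p = 0.00126, edgeR), and 2.02 ± 0.35 without Cxcr2-/- 3 (adjusted p = 6.78e-04). The library kit marks strand, but the sources used here do not give the strand setting of the counting, so RNA of mt-Nd6 and RNA of the opposite strand at its place cannot be told apart.

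mt-Tp, the proline tRNA (ENSMUSG00000064372, chrM:15356-15422, minus strand), was the tRNA gene with counts. It is the last annotated gene before the control region that closes the circle. Its sequence, from the GENCODE M21 transcripts, is shown with the anticodon in capitals.
mt-Tp: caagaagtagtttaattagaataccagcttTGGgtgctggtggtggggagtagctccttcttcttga
It had 33, 25, 26 and 10 counts in WT and 42, 35, 105 and 66 counts in Cxcr2-/-, which was 0.730, 0.502, 0.695 and 0.289 CPM against 1.06, 0.968, 2.67 and 1.604 CPM. The groups did not overlap, and the log2 fold change was 1.497 ± 0.39 (SE, adjusted p = 0.00750, edgeR). As the gene is 67 bases long, its reads also covered sequence outside it, and they do not measure mature tRNA. The strand setting of the counting is not given, so RNA of the opposite strand cannot be told apart here either, as for mt-Nd6.

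**Figure D2:**
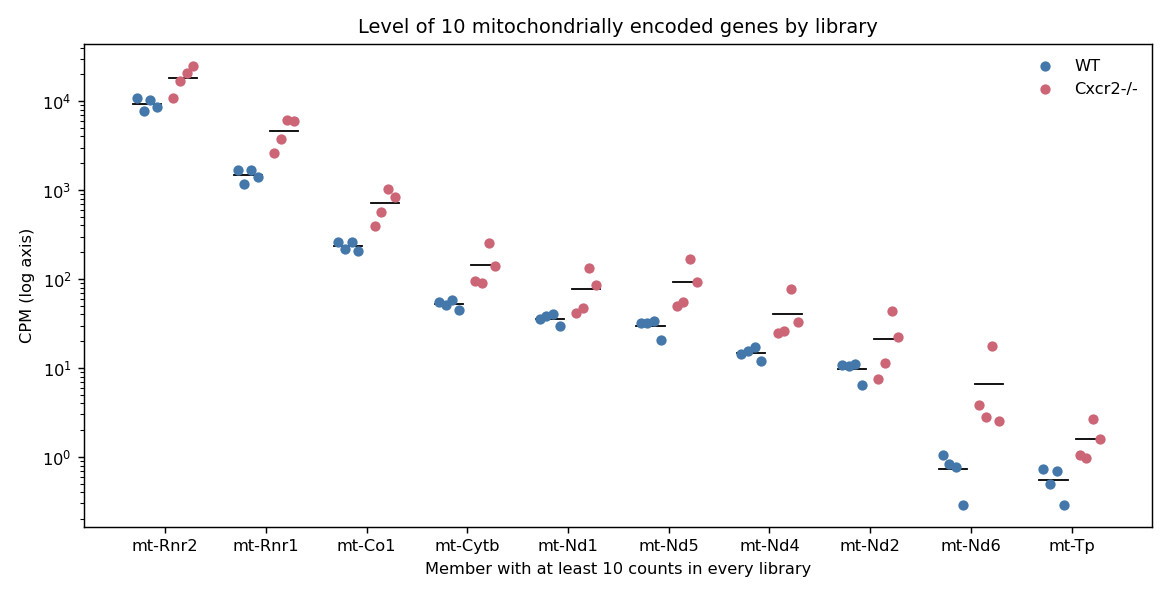
Level in CPM (log axis) of the 10 mitochondrially encoded genes with at least 10 counts in every library, by library (points; WT blue, Cxcr2-/- red, replicates 1 to 4 from left to right; bars, group means). With this scaling (TMM) the Cxcr2-/- points lie above the WT points for each gene but mt-Nd2, and Cxcr2-/- 3 is the highest library for 9 of the 10 genes.

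The libraries of each genotype kept a similar order across the genes. Cxcr2-/- 3 was the highest of its group for 9 of the 10 genes, with Cxcr2-/- 4 above it for mt-Rnr2, and Cxcr2-/- 1 was the lowest for 7. Among WT, WT 4 was the lowest for 8 of the 10, and WT 3 the highest for 6. The coefficient of variation was 11.6% to 43.3% in WT and 32.4% to 109% in Cxcr2-/-, and for each gene it was larger in Cxcr2-/-. The lowest value in Cxcr2-/- was that of mt-Rnr2 and the highest that of mt-Nd6.

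Levels per length differed widely between the genes, with the rRNAs above the protein-coding genes. As RPKM, that is CPM divided by the length of the gene in kilobases, mean levels in WT were 5930 ± 908 for mt-Rnr2, 1544 ± 256 for mt-Rnr1, 153 ± 18.4 for mt-Co1, 45.6 ± 5.30 for mt-Cytb and 37.5 ± 4.89 for mt-Nd1 (SD, n = 4 each). They were 16.2 ± 3.30 for mt-Nd5, 10.7 ± 1.57 for mt-Nd4, 9.37 ± 2.13 for mt-Nd2, 8.27 ± 3.03 for mt-Tp and 1.41 ± 0.61 for mt-Nd6. Among WT libraries the ranges of mt-Cytb (38.7 to 51.3 RPKM) and mt-Nd1 (30.7 to 41.8 RPKM) overlapped, as did those of mt-Nd5 with mt-Nd4, mt-Nd4 with mt-Nd2 and mt-Nd2 with mt-Tp, so the order of these neighbours is within their spread. The mean levels in Cxcr2-/- were 11572 ± 3745 for mt-Rnr2, 4824 ± 1826 for mt-Rnr1, 457 ± 180 for mt-Co1, 127 ± 67.6 for mt-Cytb, 80.0 ± 43.9 for mt-Nd1, 50.2 ± 30.3 for mt-Nd5, 29.02 ± 18.02 for mt-Nd4, 23.5 ± 11.7 for mt-Tp, 20.3 ± 15.5 for mt-Nd2 and 12.8 ± 13.9 for mt-Nd6 (RPKM, SD, n = 4 each). Reads with an identical nuclear copy may be missing, so mt-Nd4 and mt-Co1 may be understated on this scale. Per 1000 windows without a nuclear match, mt-Nd4 reached 29.2 CPM in WT and lay above mt-Nd5 with 17.6 CPM, while mt-Co1 stayed above both with 221 CPM.

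The share of all counts that fell on the 37 genes was 1.29%, 1.01%, 1.29% and 1.03% in WT 1 to 4 and 1.28%, 2.04%, 2.82% and 3.29% in Cxcr2-/- 1 to 4. The group means were 1.16% and 2.36%, a ratio of 2.04, with Cxcr2-/- 1 inside the WT range. Nearly all of that share was rRNA. The rRNA counts are what the depletion left, so level and depletion cannot be told apart in this share. The rRNA genes took 1.25%, 0.969%, 1.25% and 1.001% of counts in WT and 1.22%, 1.96%, 2.65% and 3.16% in Cxcr2-/-, again with Cxcr2-/- 1 within the WT range. Of the rRNAs, mt-Rnr1 took 0.126% to 0.174% in WT and 0.235% to 0.610% in Cxcr2-/- without overlap, and mt-Rnr2 took 0.843% to 1.08% and 0.989% to 2.55% with overlap.

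The 13 protein-coding genes together took 0.0405%, 0.0394%, 0.0442% and 0.0322% of counts in WT and 0.0555%, 0.0776%, 0.169% and 0.125% in Cxcr2-/-. These ranges did not overlap, and the ratio of the group means was 2.73. As sums over chosen genes, the shares were given no test. The 95% Wilson interval of a share reached at most 0.328% of its value to either side for all 37 genes and 1.87% for the protein-coding genes, so counting error is small beside the spread between libraries. For the tRNA genes, where mt-Tp holds all counts, it reached 19.2% to 64.9%. These intervals cover counting error alone. The ratio for all 37 genes was 2.25 when the share was taken of all read pairs in the file, and 2.196 when the 10 nuclear genes with the most counts were left out of the total, and with either total the groups did not overlap. It was 2.05 of the counts on protein-coding genes and 2.07 of the counts outside the 37 genes, and with these totals the groups overlapped.

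The makeup of the counts on the 13 protein-coding genes was read from the part that each gene took. Of the 13, 7 had more than 5 counts in a library, so the parts describe those 7. Reads of mt-Nd4 and mt-Co1 with an identical nuclear copy may be missing, so the parts are of counts and not of RNA. mt-Co1 made up 62.4 ± 2.26% of their counts in WT and 65.9 ± 5.19% in Cxcr2-/- (SD, n = 4 each), with overlapping ranges. The shares of mt-Cytb (13.8% and 13.3%), mt-Nd5 (7.74% and 8.10%) and mt-Nd4 (3.88% and 3.60%) also overlapped between the groups, and the side of the difference turned for each when 1 library was left out. The share of mt-Nd1 was 8.81% to 10.5% in WT and 5.81% to 7.67% in Cxcr2-/-, and these ranges did not overlap. mt-Nd1 thus rose in CPM and took a smaller part of the counts of its class. mt-Nd2 took 2.01% to 2.90% in WT and 1.23% to 2.52% in Cxcr2-/-. mt-Nd6 took 0.0907% to 0.255% in WT and 0.211% to 1.02% in Cxcr2-/-, with Cxcr2-/- 4 inside the WT range. The ratio of its group means was 2.90, and 2.08 to 3.50 with 1 library left out.

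**Figure D3:**
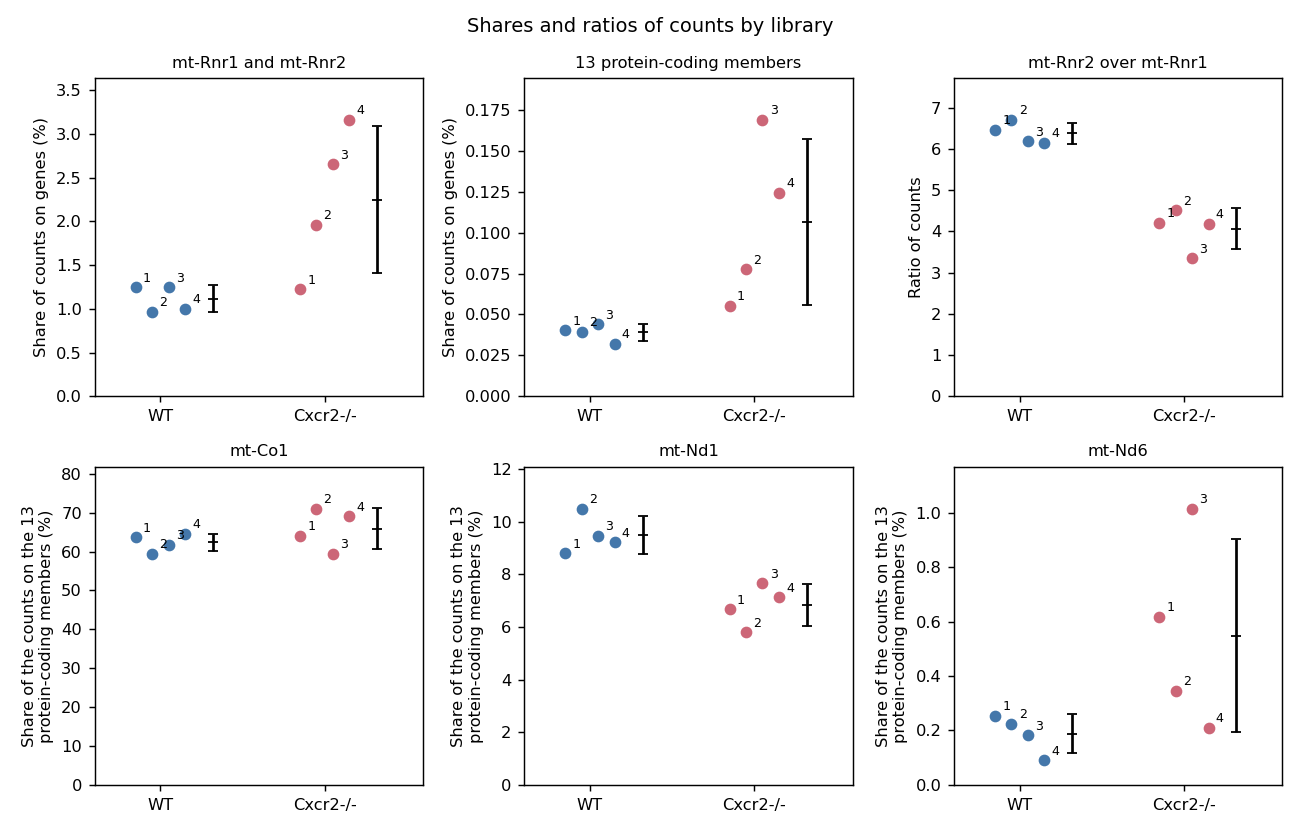
Shares and ratios by library (points, numbered by replicate; WT blue, Cxcr2-/- red; bars, mean ± SD, n = 4 each): the share of counts on genes (%) taken by the rRNA genes and by the 13 protein-coding genes, the ratio of mt-Rnr2 to mt-Rnr1 counts, and the part (%) of the counts on the protein-coding genes taken by mt-Co1, mt-Nd1 and mt-Nd6. The share of the protein-coding genes, the rRNA ratio and the share of mt-Nd1 do not overlap between the groups, and the other 3 do. Of the 13 protein-coding genes, 7 had more than 5 counts in a library.

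The share of read pairs that met no gene moved with genotype and could be entered as a covariate. With it, log2 fold changes ran from 1.07 for mt-Rnr2 to 2.69 for mt-Nd6, and 3 of the 10 genes still passed, namely mt-Rnr1 (1.77 ± 0.41 SE, adjusted p = 0.0136), mt-Co1 (1.73 ± 0.41, adjusted p = 0.0138) and mt-Cytb (1.596 ± 0.50, adjusted p = 0.0459, edgeR). The other 7 had adjusted p-values from 0.0558 for mt-Nd5 to 0.240 for mt-Nd2. The standard errors rose for each gene, and the number of genes that passed among all those tested fell from 7495 to 3083. The estimates of mt-Nd6 (3.16 to 2.69) and mt-Tp (1.497 to 1.35) fell with the covariate, and those of the other genes rose. The part of this share in the rise cannot be told apart from that of genotype, also in the genes that still passed.

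**Figure D4:**
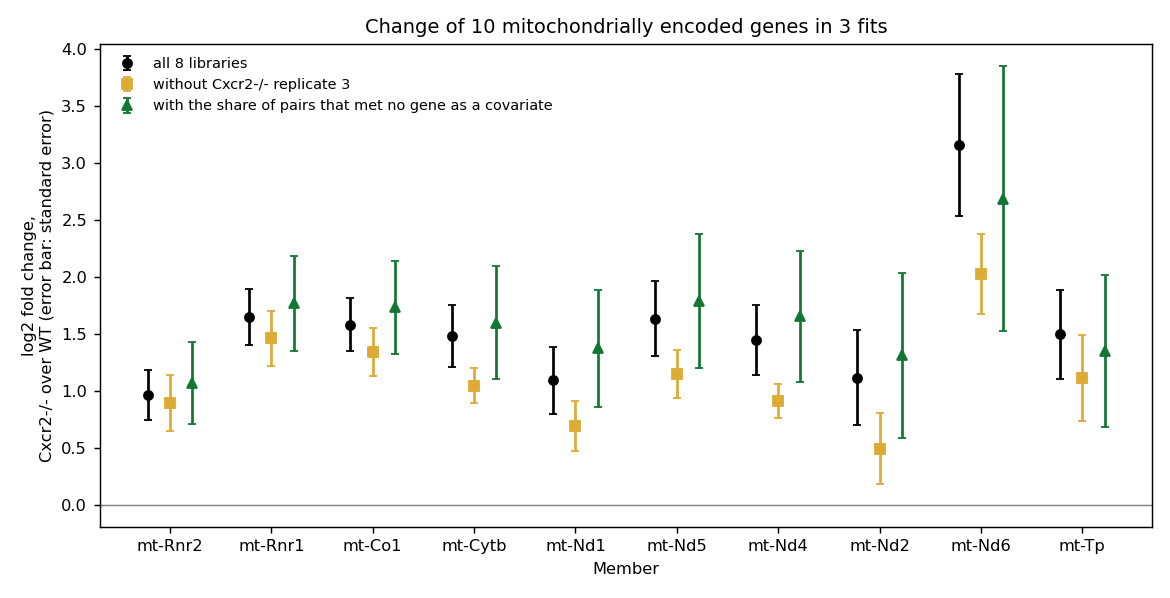
Log2 fold change (Cxcr2-/- over WT; error bars, standard error) of the 10 mitochondrially encoded genes that were tested, with all 8 libraries (black circles), without Cxcr2-/- 3 (yellow squares) and with the share of pairs that met no gene as a covariate (green triangles). All estimates lie above 0. Without Cxcr2-/- 3 the estimate of mt-Nd6 falls from 3.16 to 2.02, and the covariate widens the error bar of each gene.

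Markers of the sorted cells and of other cells also moved with genotype. The summed level of 9 neutrophil markers was 32797 to 47062 CPM in WT and 67660 to 81598 CPM in Cxcr2-/-, and 6 of the 9 rose and 2 fell. S100a8 and S100a9 made up most of that sum. The markers that fell were the deleted gene Cxcr2 and Csf3r (log2 fold change -1.06, adjusted p = 1.11e-05, edgeR). The summed B cell markers were at 78.2 to 171 CPM and 32.9 to 76.1 CPM, with 7 of 8 lower in Cxcr2-/-. The monocyte, macrophage and dendritic cell markers were at 1249 to 1454 CPM and 1014 to 1176 CPM, with 2 of 10 higher and 3 lower. Ly6c2 (log2 fold change 1.39, adjusted p = 1.99e-06, edgeR) and Ccr2 (1.72, adjusted p = 0.0130) were higher, and Adgre1, Csf1r and Itgax lower. Ccr2 was at 7.48, 8.85, 34.4 and 45.7 CPM in Cxcr2-/- 1 to 4 and at 4.34 to 9.06 CPM in WT. T and NK cell markers (98.1 to 118 CPM and 91.8 to 140 CPM), eosinophil and basophil markers (38.8 to 56.2 CPM and 35.1 to 57.3 CPM), erythroid markers (19.4 to 28.6 CPM and 18.7 to 36.7 CPM) and platelet and megakaryocyte markers (77.0 to 93.5 CPM and 49.5 to 83.2 CPM) overlapped between the groups. Within these lists 1 T and NK cell marker was lower (Cd4), as were 2 platelet and megakaryocyte markers, and no erythroid marker passed. Of the eosinophil and basophil markers, Prg2 (log2 fold change 2.87, adjusted p = 0.0120, edgeR) and Epx (2.78, adjusted p = 0.00812) were higher. Siglecf was lower and made up most of that sum. Prg2 was highest in Cxcr2-/- 3 and 4 (11.0 and 16.3 CPM). Cd3d (80.1 to 136 CPM) made up most of the T and NK cell sum. No marker was at 0 in all libraries. With a score of the non-neutrophil markers as a covariate, the 10 mitochondrially encoded genes still passed. The score was the mean of log2(CPM + 1) over all these markers, so rises and falls offset each other in it. It was 2.22 to 2.55 in WT and 1.94 to 2.55 in Cxcr2-/-. It cannot follow a single cell type, so the part of other cells in the rise was not tested. The part of neutrophil maturity in the rise was not tested.

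Most of the nuclear genes that complete the complexes were also higher in Cxcr2-/-. In the lists of complexes I, III, IV and V, 10 of the 74 nuclear genes tested did not pass. Of 36 nuclear subunits of complex I, 30 passed upward and none downward, with a median log2 fold change of 0.69 beside 0.01 over all genes tested. Ndufa11 (2.48 ± 0.26 CPM in WT and 8.79 ± 1.62 CPM in Cxcr2-/-, SD, n = 4 each) and Ndufa5 (0.591 ± 0.186 CPM and 1.997 ± 0.609 CPM), both accessory subunits, led with log2 fold changes of 1.82 and 1.75. Complex III had 8 of 9 subunits higher with a median of 0.79, among them Uqcrb (1.17) and the cytochrome c1 gene Cyc1 (1.06). Complex IV had 10 of 11 higher with a median of 0.70, led by Cox5a (0.997) and Cox7b (0.95). The list of complex V, the ATP synthase, had 16 of 18 genes higher with a median of 0.73, led by Atp5k (1.68) and Atp5o (1.47). It holds the inhibitor gene Atpif1 (0.65), which is not a subunit. In these 4 complexes no subunit passed downward in edgeR or in DESeq2, none had an unadjusted p under 0.05 downward, and with upper-quartile scaling 1 subunit of complex V did pass downward. The named nuclear genes had adjusted p-values under 0.05 in the same edgeR fit. Many of these nuclear genes have processed pseudogenes, and reads that both could give may be missing from their counts.

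Complex II (succinate dehydrogenase) has no mitochondrially encoded subunit, and its 4 genes had log2 fold changes on both sides of 0. Sdhc (log2 fold change 0.94) and Sdhb (0.52) rose, Sdha fell (-0.25, adjusted p = 0.0253, edgeR), and Sdhd had a log2 fold change of -0.16 with an adjusted p of 0.217. No gene of complex II passed downward without a filter on low counts, with either covariate, or without WT 1, Cxcr2-/- 2 or Cxcr2-/- 3. The median of the complex was 0.18. With 4 genes, no difference from the other complexes was tested.

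Genes that copy and transcribe mitochondrial DNA mostly did not pass. Of 19 tested, 3 were higher and none lower in edgeR (2 at an unadjusted p under 0.05, and 2 by DESeq2), with a median log2 fold change of 0.14. Mterf4, which acts on ribosome assembly in the organelle, rose from 6.89 ± 1.26 to 12.2 ± 2.41 CPM (SD, n = 4 each, log2 fold change 0.82), and Ssbp1, the single-stranded DNA binding protein of the replisome, from 6.74 ± 0.181 to 9.87 ± 1.19 CPM (0.55). Of 23 genes of mitochondrial RNA processing, stability and decay, 7 were higher, near the 23.7% of all genes tested, and none lower (1 at an unadjusted p under 0.05, and 1 by DESeq2), with a median of 0.38. The 7 became 4 without WT 4 and 3 with upper-quartile scaling. They were led by Fastkd3 (1.40), an RNA binding protein of mitochondria, and Hsd17b10 (1.14), a subunit of the RNase P that cuts tRNA 5′ ends. Of 30 genes for mitochondrial tRNA synthetases and tRNA modification, 10 were higher and 2 lower, with a median of 0.27, and the 10 became 6 when libraries were scaled by total counts. The leucyl and seryl enzymes Lars2 (1.73) and Sars2 (1.49) rose, and the asparaginyl and methionyl enzymes Nars2 (-1.76) and Mars2 (-0.68) fell. Of 9 regulators of mitochondrial biogenesis tested, 1 was higher (the nuclear receptor gene Esrra, 0.34) and 1 lower (Gabpb1, -0.24), with a median of -0.09. With 1 library left out, no regulator passed upward in 5 of the 8 fits and none passed downward in 5 of the 8, and none passed upward in DESeq2.

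Across the lists of the 5 complexes, 66 of 78 nuclear genes tested passed upward (84.6%), against 23.7% of all genes tested. In the other 4 lists, each gene taken once, 21 of 80 did (26.2%), close to that background. Downward, 4 of the 158 genes passed, against 21.0% of all genes tested. With the share of pairs that met no gene as a covariate, 33 passed upward and 0 downward. Of all 16778 genes tested, 1597 passed upward and 1486 downward in that fit. The difference between the mitochondrial and the nuclear genes was not tested.

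**Figure D5:**
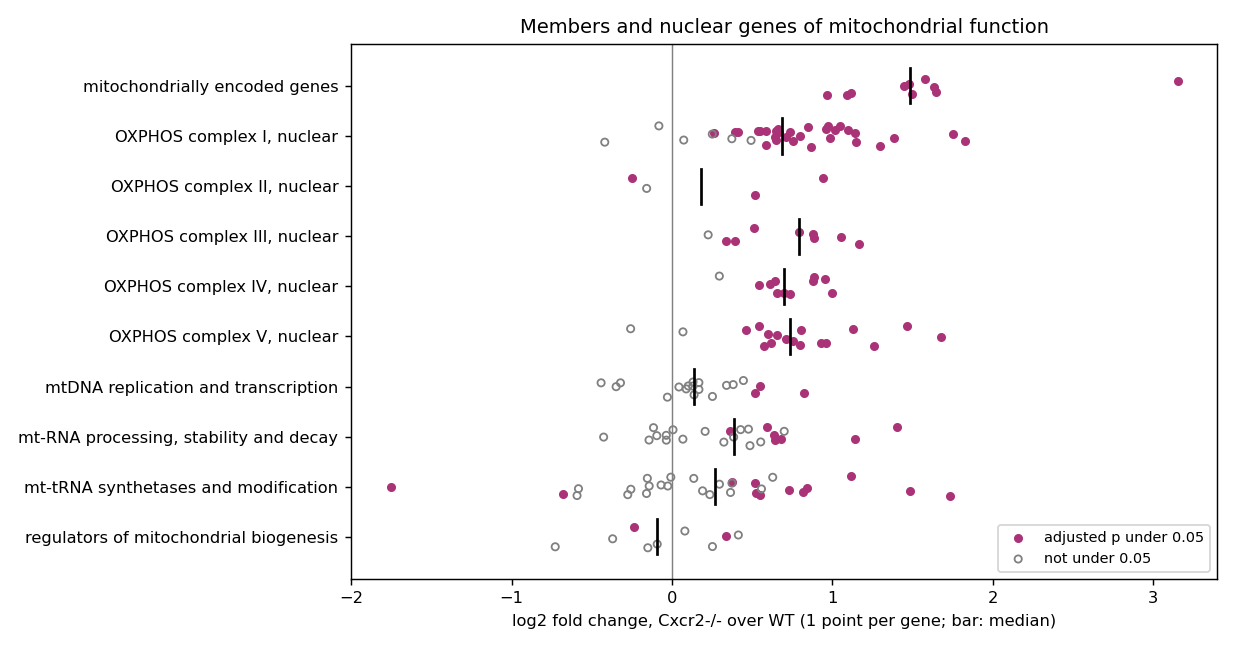
Log2 fold change (Cxcr2-/- over WT) of each gene tested, for the 10 mitochondrially encoded genes and for 9 lists of nuclear genes of mitochondrial function (1 point per gene; filled, adjusted p under 0.05; open, above; bars, medians). The nuclear genes listed for complexes I, III, IV and V have medians of 0.69 to 0.79 with single genes up to 1.82, and the mitochondrially encoded genes have a median of 1.49, while the regulators of biogenesis have a median of -0.09.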

How the data were processed

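RNA of sorted spleen neutrophils was sequenced as 150-base read pairs. Per the study's methods, libraries were made with a directional kit after rRNA depletion, reads were trimmed and kept at 120 bases or more, and aligned to mm10 with STAR, and the authors deposited HTSeq counts per gene and library, not normalised. FastQC and HTSeq are named in the submitters' processing notes. The strand setting and annotation release are not given in the sources used here. Of 52081 gene IDs with a GENCODE M21 entry, 35 carry the same version, so another release was counted, and 3333 IDs had no entry. Symbols, positions and lengths were taken from M21. HTSeq's rows for pairs without a gene were left out of library sizes and tests.

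Counts were scaled by TMM, filtered with filterByExpr and tested over 16778 genes with edgeR 4.0.16 (quasi-likelihood, Benjamini-Hochberg, R 4.3.3). A gene passed with an adjusted p under 0.05, and a change of at least 1.5-fold was asked of calls. The test was checked on simulated data in which 200 of 16778 genes were changed. It recovered 58% of the 2-fold and 92% of the 4-fold changes and called 5 unchanged genes. A gene that did not pass is thus not shown to be unchanged. DESeq2 1.42.0, other scalings, filters and covariates, and fits without each library were alternatives. Nuclear copies were found with BLAST+ 2.17.0 among annotated transcripts, since no genome sequence was used here, so unannotated copies were missed. Shares were given 95% Wilson intervals. All 13 protein-coding and 2 rRNA genes were named, tRNA genes where they passed, the 3 copies with the most counts, and up to 2 rises and 2 falls per nuclear list. The genes and lists were chosen with earlier results of these data known.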

Additional observations from a re-analysis of the deposited data

Results flagged for a closer look

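In 38 groups of 4 libraries, 3 values stood apart from the other libraries of their group by Dixon's test at the 95% level. Chance alone flags about 1 in 20 such groups. mt-Nd2 was at 6.421 CPM in WT 4, below 10.6 to 11.0 CPM in the other WT libraries. mt-Nd4 was at 76.86 CPM in Cxcr2-/- 3, above 24.6 to 32.7 CPM in the other Cxcr2-/- libraries. mt-Nd6 was at 17.44 CPM in Cxcr2-/- 3, above 2.55 to 3.79 CPM in the others. The last pair come from 1 library, which was the highest of its group for 9 of the 10 genes.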

How the results depend on the processing

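The log2 fold changes of the 10 genes stayed above 0 in each of the 20 alternative fits. mt-Rnr1, mt-Co1 and mt-Cytb passed in all 20, with fold changes on the log2 scale of 1.46 to 1.87, 1.34 to 1.83 and 1.05 to 1.77. mt-Rnr2, mt-Nd1, mt-Nd4, mt-Nd5, mt-Nd6 and mt-Tp lost the call in 1 fit, that with the share of pairs that met no gene as a covariate, and mt-Nd2 lost it in 13. The cause was not tested. That covariate left 3 mitochondrially encoded genes passed, and 3 called. It left 33 nuclear genes passed upward and 0 downward, against 1597 and 1486 of all 16778 genes tested. Without 1 library at a time, 9 to 10 genes passed and were called. Deviations from the group means had correlations of 0.15, -0.19, 0.24 and -0.31 between same-numbered libraries. For WT 1 and WT 3 the best match was the Cxcr2-/- library of the same number. Whether the mice were handled in pairs is not given in the sources used here. With the replicate block, 9 of the 10 passed, and mt-Nd2 did not (adjusted p = 0.109).

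The 4 nuclear genes that passed downward became 7 with DESeq2, 13 with upper-quartile scaling, 7 with total counts, 2 without a filter, 2 with the non-neutrophil covariate, and 10 with protein-coding genes alone. They were 2 to 5 with 1 library left out, the lowest without Cxcr2-/- 3. Over all 16778 genes tested, 3526 passed downward in the main fit, 3780 with DESeq2, 4391 with upper-quartile scaling and 4080 with total counts. Downward passes were 3730 of 29868 without a filter, 3343 of 16778 with the non-neutrophil covariate, and 2954 of 12143 with protein-coding genes alone. Upper-quartile scaling moved the median of all genes to -0.11. With 1 library left out, the ratio of group means (Cxcr2-/- over WT) of the share within the protein-coding genes ran from 0.852 to 1.01 for mt-Nd4, 0.970 to 1.10 for mt-Nd5 and 0.912 to 1.01 for mt-Cytb, so their sides turned. At 5 counts or fewer, mt-Co2, mt-Atp6 and mt-Co3 could not be tested, nor could the 24 genes without a count.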
